A study of Mus musculus with 7 samples.

Results

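Cytosines with intermediate methylation in wild-type mouse embryonic stem cells were followed through the loss of Uhrf1, its replacement by human UHRF1 and the knockdown of Mof. A site was a member when both wild-type libraries had at least 10 reads on it and from 30% to 70% of those reads were methylated in each. In the table that holds the rescue libraries, 585 of 18189 sites met this rule, out of 7991 sites with the wild-type reads it asks for. In the table that holds the knockdown library, 729 of 21989 sites met it, out of 9600. Both tables use the same wild-type libraries, and 482 sites were members in both, which was 82.4% of the rescue-table members and 66.1% of the knockdown-table members. Because wild-type reads chose the members, wild-type levels and every difference from wild type are descriptions here. Counts of test calls against wild type are printed beside those of all sites with nothing read from them. Only comparisons among the other libraries set no level that chose the members against another. Their tests still take part of the spread from the wild-type libraries, which the rule keeps narrow at the members.

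All libraries were made from J1 cells, a mouse embryonic stem cell line, grown with serum and leukemia inhibitory factor. Wild type and Uhrf1-/- had 2 libraries each, numbered 1 and 2. The wild-type rescue was 1 library of Uhrf1-/- cells transfected with tagged wild-type human UHRF1. The 3KR rescue was 1 library of Uhrf1-/- cells transfected with human UHRF1 carrying K667R, K668R and K670R, numbered along the protein, so both rescues also lacked mouse Uhrf1. Values of these 2 libraries are given below as those with wild-type UHRF1 and with 3KR. Rescued cells were selected with hygromycin and picked as single colonies, so each rescue is 1 colony-derived line that expresses the human protein from a plasmid. The Mof knockdown was 1 library of cells with a stable knockdown. Whether the paired libraries of wild type and Uhrf1-/- were grown separately is not stated, and the lone libraries have no replicate check.

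UHRF1 binds hemimethylated DNA behind the replication fork and recruits DNMT1, the methyltransferase that copies methylation to the new strand. MOF, encoded by Kat8, is a lysine acetyltransferase best known for acetylating histone H4, and the series title asks how its acetylation of UHRF1 bears on the upkeep of methylation. Intermediate levels are known from imprinted regions, where the parental alleles differ, and from the edges of CpG islands and regulatory DNA, where levels vary between cells. In bulk DNA, a mixture of methylated and unmethylated cells or alleles and a partial level in each cell cannot be told apart.

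Promoter windows of 4 genes are shown because they hold members of both tables and show where such cytosines lie relative to a transcript start. They are RefSeq windows of GRCm38.p6 that run from 250 bases before to 50 after the start, printed on the gene's strand, with the CpG of each member in capitals. Of the 585 rescue-table members 8 lay in such a window, and of the 729 knockdown-table members 12 did, and each of them was the cytosine of a CpG. The windows are Qrich2 (chr11:116454298-116454597, minus strand), Dcdc2c (chr12:28552350-28552649, minus strand), Tmprss12 (chr15:100280587-100280886, plus strand) and Tmem255b (chr8:13435209-13435508, plus strand).
Qrich2: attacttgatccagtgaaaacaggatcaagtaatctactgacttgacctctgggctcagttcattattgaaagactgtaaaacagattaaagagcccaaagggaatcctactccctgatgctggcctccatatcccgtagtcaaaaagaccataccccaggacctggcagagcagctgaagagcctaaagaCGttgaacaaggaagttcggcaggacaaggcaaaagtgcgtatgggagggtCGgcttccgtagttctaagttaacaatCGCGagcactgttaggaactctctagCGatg
Dcdc2c: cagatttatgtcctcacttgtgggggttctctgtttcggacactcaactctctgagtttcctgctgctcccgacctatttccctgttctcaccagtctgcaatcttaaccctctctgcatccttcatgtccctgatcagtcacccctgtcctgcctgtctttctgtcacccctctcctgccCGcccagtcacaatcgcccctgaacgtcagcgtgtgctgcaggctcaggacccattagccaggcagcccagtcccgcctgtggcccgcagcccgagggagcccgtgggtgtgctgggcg
Tmprss12: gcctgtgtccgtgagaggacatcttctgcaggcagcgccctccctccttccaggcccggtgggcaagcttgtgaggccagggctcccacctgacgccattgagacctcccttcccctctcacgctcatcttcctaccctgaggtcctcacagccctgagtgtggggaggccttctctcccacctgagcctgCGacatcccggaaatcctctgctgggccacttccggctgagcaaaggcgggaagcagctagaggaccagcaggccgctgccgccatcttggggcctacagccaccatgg
Tmem255b: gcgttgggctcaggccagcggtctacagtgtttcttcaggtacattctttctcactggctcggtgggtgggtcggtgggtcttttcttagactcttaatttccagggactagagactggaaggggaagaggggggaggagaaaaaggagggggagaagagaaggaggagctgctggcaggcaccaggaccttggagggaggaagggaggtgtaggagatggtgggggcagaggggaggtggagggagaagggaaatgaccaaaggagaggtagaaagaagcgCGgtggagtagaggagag

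The Qrich2 window holds 9 CG dinucleotides, of which 5 are members, against a median of 7 CG per window over 32851 RefSeq windows. Qrich2 encodes a protein of the sperm flagellum. Its members lie 45, 21 and 19 bases after the start and 8 and 59 bases before it. Their wild-type levels ran from 34.8% to 57.1% in library 1 and from 40% to 70% in library 2, on 20 to 24 reads each. In Uhrf1-/- they ran from 0% to 15.4% in library 1 and from 0% to 16.0% in library 2. In the wild-type rescue the 5 sites spread from 11.1% to 63.6% on 9 to 12 reads, while in the 3KR rescue 4 of them were at 0% on 18 reads and the other was at 11.1%. In the Mof knockdown all 5 were lower than in both wild-type libraries, from 9.09% to 27.3% on 22 reads each. The member of Dcdc2c, a doublecortin-domain gene, had 63.0% and 57.1% in wild type, 57.9% with wild-type UHRF1, 0% in both Uhrf1-/- libraries and the 3KR rescue, and 36.4% in the knockdown. The member of Tmprss12, a serine protease gene, went the other way between the rescues, with 0% of 9 reads with wild-type UHRF1 and 60% of 10 reads with 3KR.

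Methylation was read by reduced representation bisulfite sequencing, which samples CpG-rich restriction fragments and reports for each read whether a cytosine was methylated. The level of a site is the percent of its reads that were methylated, and the level of a library is the unweighted mean over sites. The rescue-table libraries held 257860 to 668870 reads over all sites, and the members held 7908 to 22319, with a median of 12 to 30 reads per member. In the knockdown library the members held 11864 reads, with a median of 13 per member. Methylated counts from 1 to 10 were odd in only 20.7% to 27.1% of cases over all sites and libraries, and unmethylated counts in 17.5% to 33.6%, so even counts were in excess. The cause of this was not tested, and intervals from read counts may be too narrow. No covered site lay at Uhrf1. Promoter sites of marker genes were read without the 10 reads of the rule, from 5 reads per library. Those of the stem cell genes Sox2 (mean of 2 sites) and Nr5a2 (1 site) were at 0% to 6.25% in every library of the rescue table. This checks the cell type only loosely. Of the fibroblast genes, 1 Col3a1 promoter site had 0% and 44.4% in wild type, 0% and 75% in Uhrf1-/-, 41.7% with wild-type UHRF1 and 15.4% with 3KR. The 1 Thy1 promoter site of the knockdown table had 71.4% and 87.5% in wild type and 14.3% in the knockdown. It lacked the 10 reads of the rule in at least 1 wild-type library.

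Members averaged 50% in wild-type library 1 and 53.4% in library 2, which the rule fixed (51.7% ± 2.38, SD, n = 2). The lowest levels inside the rule were at 30% and the nearest outside at 29.4%, and the highest inside were at 70% and the nearest outside at 70.1%. Chosen on 1 wild-type library alone, a site was often not intermediate in the other. Of 1418 sites from 30% to 70% in library 1, 41.3% were in that range in library 2, 11.0% were below it and 47.7% above it. Of 1329 such sites of library 2, 44.0% were in the range in library 1, 19.6% below and 36.4% above. The members are thus the sites on which both wild-type libraries fell in the range, and their narrow wild-type spread comes from the rule.

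**Figure D1:**
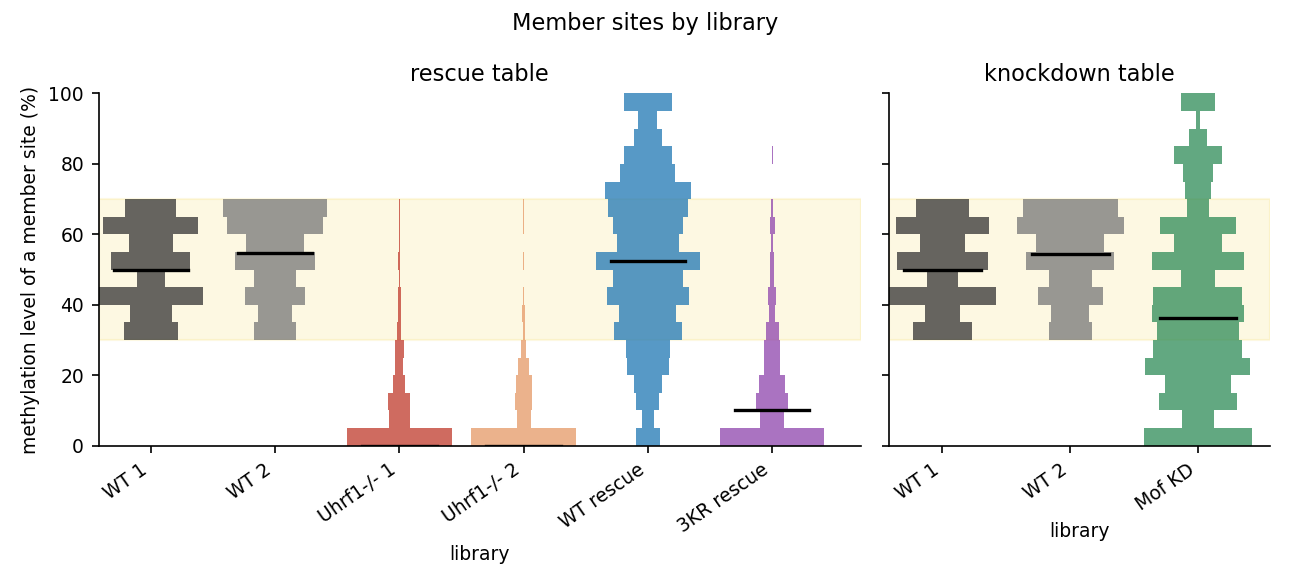
Methylation level of member sites with at least 10 reads (vertical axis, percent) in each library, drawn as histograms of 5 points per bar scaled to their own highest bar, with the median as a black line and the range of the rule shaded. The Uhrf1-/- libraries pile up at 0%, the 3KR rescue lies just above them, and the wild-type rescue and the Mof knockdown spread from 0% to 100%.

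Without Uhrf1 the members kept little methylation, with means of 8.88% and 8.38% in the 2 libraries (8.63% ± 0.349, SD, n = 2). The median member was at 0% in both libraries. Of 334 members with at least 10 reads in both Uhrf1-/- libraries, 121 (36.2%) were at 0% in both and 14 (4.19%) kept at least 20% in both. Of all covered sites with those reads, 41.1% and 7.56% did, but sites unmethylated in wild type are in that background. Of 1346 such sites over 70% in both wild-type libraries, 13.7% and 18.9% did. Members at 30% or more in both Uhrf1-/- libraries numbered 3, a site in an intron of Ttc28 and 2 sites in an intron of Gse1. The product of Gse1 belongs to CoREST-type histone deacetylase complexes. The 2 Gse1 sites, at chromosome 8, 120347844 and 120347885, had 50% and 41.7% of 24 reads in library 1 and 33.3% and 36.4% of 12 and 11 reads in library 2. The share of its wild-type level that a class kept was 16.7% for members and 18.1% for the 2374 sites over 70% in both wild-type libraries. Of the 334, 320 (95.8%) were 20 points or more below the wild-type mean and none was as far above it, beside 54.6% and 0.0652% of all 4603 sites with those reads. edgeR's quasi-likelihood test with Benjamini-Hochberg adjustment called 120 of the 334 members lower, beside 38% of all 3917 sites tested. A call required that the adjusted p was below 0.05 and that the levels were 20 or more points apart. With any 1 wild-type or Uhrf1-/- library left out, 0 to 2 were called. Nothing is read from these counts, because wild-type reads chose the members.

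Members with a higher mean in Uhrf1-/- than in wild type numbered 4 of 585. They lay by 4933433H22Rik, in Fhdc1, in Ssx2ip and near Gm31432, and were named after their values were seen. The member by 4933433H22Rik, for example, had 23.1% in library 1 and 100% in library 2.

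With wild-type human UHRF1 the members averaged 54.2%, against 8.88% and 8.38% in the Uhrf1-/- libraries they were made from. Over the pooled reads of the members the rescue had 52.6% (95% Wilson interval 51.9 to 53.3, counting error only). Of 315 members with at least 10 reads in the 3 libraries, 266 stood 20 points or more above the Uhrf1-/- mean in the rescue and none as far below it. That was 84.4% of these members, beside 61% of all 8193 sites with those reads above and 0.122% below. Because members were chosen away from 0%, sites that stay unmethylated throughout are in the background and not among them. The same count was 195 of 1857 for sites under 30% in both wild-type libraries and 1214 of 1273 for sites over 70% in both.

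edgeR's quasi-likelihood test called 10 of the 315 members above Uhrf1-/- in the wild-type rescue, with Benjamini-Hochberg adjusted p from 0.0389 to 0.0498, beside 3.53% of all 7092 sites tested. This share of members is close to that of all sites. None of the 10 was called when any 1 wild-type or Uhrf1-/- library was left out, and limma on the methylation level called 151 of 315, beside 29.5% of all sites. The called members lay in sites annotated as introns at Plec, Nrtn, Arhgap19, Man1c1 and Tmem150b, upstream of Lman1l and Tent5d, and nearest to the predicted genes Gm38510, Gm13870 and Gm18386.

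The member of Arhgap19, in an intron 1927 bases after a start (chromosome 19, 41800121), had 50% of 28 and 48.5% of 33 reads in wild type. It had 0% of 10 and of 16 reads in Uhrf1-/-, 90.7% of 43 reads with wild-type UHRF1 (interval 78.4 to 96.3) and 0% of 60 reads with 3KR, which allows up to 5.00%. The wild-type rescue thus stood above every other library, and the 3KR rescue was as low as Uhrf1-/- (edgeR adjusted p = 0.0389 for the rescue against Uhrf1-/-). Plec encodes plectin, a linker of the cytoskeleton. Its intron member (chromosome 15, 76189594) had 61.9% and 53.3% in wild type, 0% of 20 and of 12 reads in Uhrf1-/-, 84.0% of 75 reads with wild-type UHRF1 and 16.7% of 24 with 3KR. Man1c1 encodes an alpha-mannosidase of the Golgi. Its member (chromosome 4, 134701445) had 63.2% and 60% in wild type, 0% of 22 and of 20 reads in Uhrf1-/-, 81.4% with wild-type UHRF1 and 50% of 24 reads with 3KR, the highest 3KR level of the 10.

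Set against wild type, the mean of the wild-type rescue was 2.54 points higher over the members, while over the sites above 70% the difference was -15.6 points, at 74.8% against 90.5%. As a share of the loss in Uhrf1-/-, the rescue regained 105.9% at the members and 78.9% at the sites above 70%. The member value lay between 101.9% and 110.2% when either wild-type library was used alone. The rule confines both libraries at the members, so this narrow range is no check of the value. No share regained was computed for sites chosen on 1 library. The difference of 2.54 points from wild type depends on how the sites were chosen. Over the 281 members with at least 10 reads in every library it was -0.0441 points. For sites chosen on wild-type library 1 and compared with library 2, which had no part in the choice, the difference was -7.71 points, at 57% against 64.7% over 1330 sites. Chosen on library 2 and compared with library 1, it was -2.06 points, at 54.2% against 56.3% over 1235 sites. The sign of the difference from wild type thus changed with the choice of sites and reads.

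**Figure D2:**
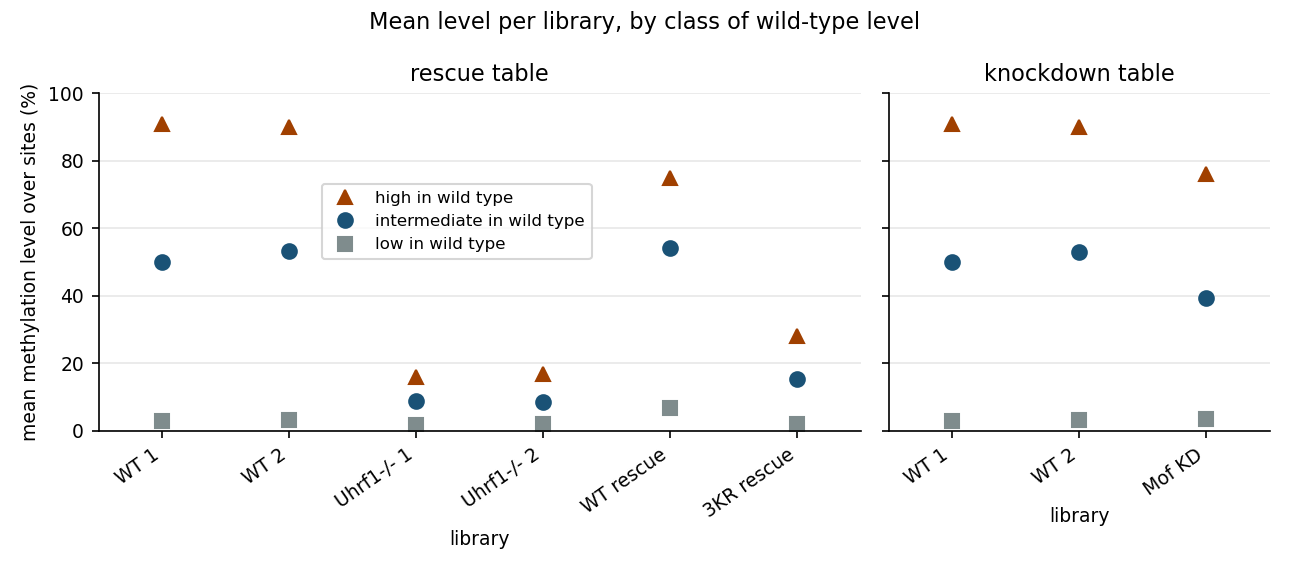
Mean methylation level over sites (vertical axis, percent) in each library, for sites under 30%, from 30% to 70% and over 70% in both wild-type libraries. In the wild-type rescue the intermediate sites sit at 54.2% and the high sites at 74.8%. The classes are set apart in wild type by the rule.

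Single members scattered widely around the mean of the wild-type rescue. Of 553 with at least 10 reads, 313 (56.6%) stayed from 30% to 70%, 91 (16.5%) were below and 149 (26.9%) above. All 7430 covered sites with those reads had 27.1% in the range, 44.0% below and 28.9% above. The share of members above was close to this. Sites whose 2 wild-type libraries fell in different classes had 48.7% in the range, 16.4% below and 34.9% above. The SD over members was 23.8 points, where counting error alone gives 9.64 points, or 13.6 points if every 2 reads are counted as 1. A wild-type library read on sites that only the other had chosen was spread as widely, with an SD of 25.4 points in library 2 and 28.5 points in library 1. Of the 553 members, 97 were 20 points or more below the wild-type mean in the rescue and 116 were as far above it, beside 17% and 8.56% of all 7430 sites with those reads. edgeR called none of the 553 in either direction, beside 0% of all 6313 sites tested. At an unadjusted p below 0.05 it gave 7 lower and 11 higher. These were beside 2.98% and 2.38% of all sites tested. With limma, 11 lower and 6 higher members were called, beside 1.39% and 1.73%. Nothing is read from these counts, since the wild-type reads compared had chosen the members.

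Members that were high in the wild-type rescue were on average also higher in the other libraries. The 149 members over 70% with wild-type UHRF1 averaged 11.9% and 13.4% in Uhrf1-/- and 22.2% with 3KR. The 91 members under 30% averaged 5.49% and 4.22% in Uhrf1-/- and 8.16% with 3KR. Their wild-type means also differed, at 51.2% and 56.5% for the first set and 46.2% and 48.6% for the second. Promoter sites made up 15.4% of the members over 70% and 26.4% of those under 30%.

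**Figure D3:**
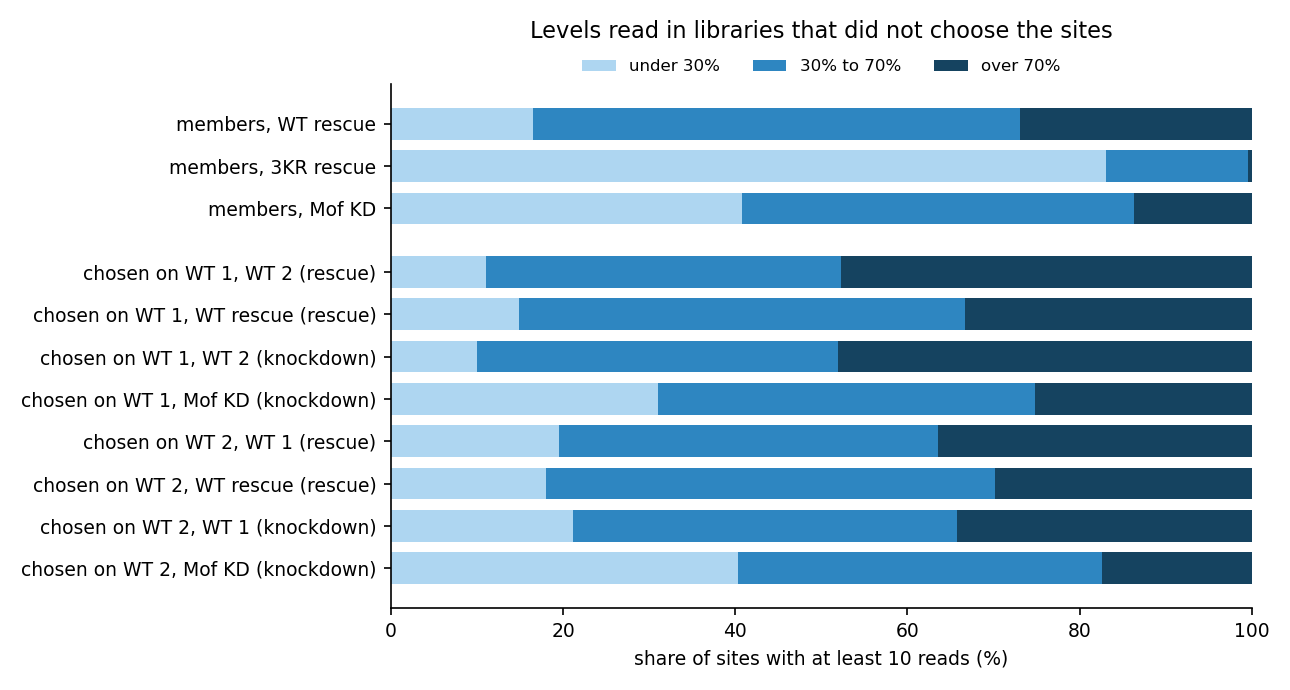
Share of sites with at least 10 reads (horizontal axis, percent) that were under 30%, from 30% to 70% and over 70% in libraries that had no part in choosing them. The upper bars are members, and the lower bars are sites chosen on 1 wild-type library, read in the other wild-type library and in the rescue or knockdown library of the same table.

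The 3KR rescue stayed far below the wild-type rescue, at 15.3% against 54.2%. Pooled reads gave 14.3% (95% Wilson interval 13.7 to 14.9) against 52.6%. Of 461 members with at least 10 reads in both rescues, 362 (78.5%) lay 20 points or more below the wild-type rescue and 1 (0.217%) as far above it. Of all 11900 sites with those reads, 57% lay as far below and 0.966% as far above. Sites that stay unmethylated throughout are in that background. As far below were 293 of 2704 sites (10.8%) under 30% in both wild-type libraries. Among sites over 70% in both, 1649 of 1875 (87.9%) were, a larger share than of the members. The 1 higher member, annotated as intron, lay 7050 bases upstream of the start of Rhou, with 33.3% with wild-type UHRF1 and 66.7% with 3KR. In the 3KR rescue 402 of 484 members were under 30%, 80 were in the range and 2 were over 70%, which is 83.1%, 16.5% and 0.413%. All covered sites were close to this, at 81.6%, 17.3% and 1.12%. The 2 over 70% lay in a promoter annotated inside Csnk1e, a casein kinase gene, with 84.6%, and nearest to Fam102a with 83.3%. These genes, like the Rhou member, were named after their values were seen.

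Each rescue was 1 library, and edgeR called none of the 461 members between them, beside 0.00964% of all 10372 sites tested. At an unadjusted p under 0.05 the same test gave 85 of the 461 members lower and 0 higher, beside 14.8% of all sites lower. limma called 94 lower, beside 13% of all sites. Members were lower in the 3KR rescue on every one of the 19 autosomes, with mean differences from -56.8 to -27.9 points. The autosomes were read in the same lone libraries, so they are not replicates and do not add to the test.

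The 3KR rescue was above Uhrf1-/- by 6.63 points over the members, at 15.3% against 8.88% and 8.38%. This made up 15.4% of the loss at the members and 15.6% at the sites above 70%. Of 297 members with at least 10 reads in the 3 libraries, 53 stood 20 points or more above the Uhrf1-/- mean and 5 as far below, beside 15.8% and 2.8% of all 7287 sites. At 17.8% of the members the share was close to that of all sites. edgeR called none of the 297, beside 0.159% of all 6270 sites tested, with 8 higher, beside 2.82% of all sites, and none lower at an unadjusted p under 0.05. limma called none either. The 5 lower members lay at Apc2, Becn1, Muc1, Dnajc11 and Gse1, and were named after their values were seen. Muc1, a cell-surface mucin, is an example: its member at chromosome 3, 89231703 had 25% and 21.1% in Uhrf1-/-, 100% with wild-type UHRF1 and 0% with 3KR.

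After Mof knockdown the knockdown-table members averaged 39.3%, against 50.1% and 53.1% in wild type (51.6% ± 2.14, SD, n = 2). Pooled reads gave 38.4% in the knockdown (95% Wilson interval 37.5 to 39.3). This left 76.3% of the wild-type level at the members and 84.0% at the 2953 sites over 70% in both wild-type libraries, which averaged 90.5% and 76.0%. The knockdown was also lower than a wild-type library that had no part in the choice. For sites chosen on wild-type library 1 and compared with library 2, the difference was -17.7 points, at 47.5% against 65.2% over 1207 sites. For sites chosen on library 2 and compared with library 1, it was -14.4 points, at 40.7% against 55.1% over 1101 sites.

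Of 513 members with at least 10 reads in the knockdown, 218 were 20 points or more below the wild-type mean and 55 as far above it. That was 42.5% and 10.7%, beside 21.2% and 4.34% of all 6679 sites with those reads, and nothing is read from it because wild-type reads chose the members. The knockdown held 209 of the 513 under 30%, 234 in the range and 70 over 70%, which is 40.7%, 45.6% and 13.6%, beside 50.1%, 22% and 28.0% of all covered sites. edgeR called none of the 513, beside 0% of all 5164 sites tested. At an unadjusted p below 0.05 it gave 16 lower and 2 higher, beside 2.83% and 1.24% of all sites, and limma called none. The lone knockdown library borrows its spread from the wild-type libraries in this test.

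**Figure D4:**
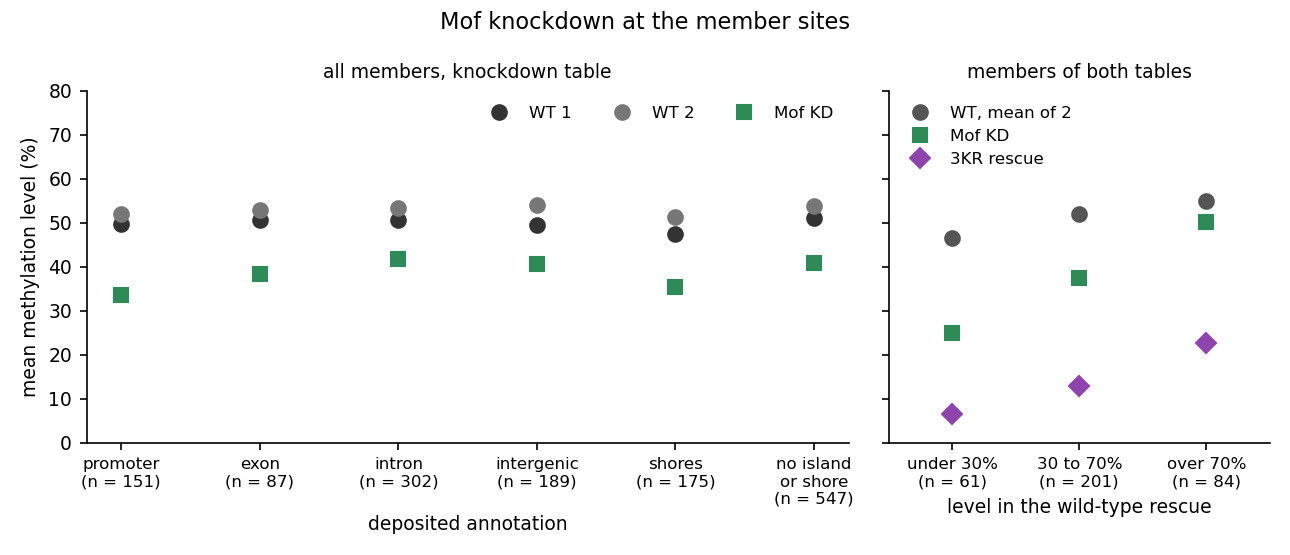
Mean methylation level (vertical axis, percent) of knockdown-table members by deposited annotation, and of the 346 members of both tables with at least 10 reads by their level in the wild-type rescue. Promoter members had the lowest knockdown mean of the 4 gene classes, 33.5%, and members under 30% with wild-type UHRF1 averaged 24.9% in the knockdown.

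At the 10 reads of the rule, the members lay in promoters less often than all covered sites and in introns and exons more often. These shares moved with depth. Of 145 rescue-table members with at least 20 reads in both wild-type libraries, 29.7% were in promoters, 33.8% in introns and 8.97% in exons. The shares of all sites were not computed at that depth. Among rescue-table members, 244 of 585 (41.7%) were in introns, 148 (25.3%) intergenic, 126 (21.5%) in promoters and 67 (11.5%) in exons. Of all 7991 covered sites 31.3% were in introns, 22.7% intergenic, 38.0% in promoters and 7.96% in exons. Exons held 4.83% of the sites under 30% and 9.56% of those over 70%, and promoters held 63.9% of the sites under 30% and 16.2% of those over 70%. CpG islands held 7 members (1.20%, against 11.9% of covered sites), island shores 129 (22.1%, against 26.3%), and 449 lay in neither. The median member was 3169 bases from the nearest transcript start, against 576.5 bases for sites under 30% and 5966 bases for sites over 70%.

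Promoter members were lower than intron members in each library that the rule did not use. They had 6.86% and 6.15% in Uhrf1-/-, 48.7% with wild-type UHRF1 and 13.2% with 3KR. Intron members had 9.62% and 8.38% in Uhrf1-/-, 56.9% with wild-type UHRF1 and 16.8% with 3KR. Their wild-type means were closer, at 50.5% ± 1.52 and 52.0% ± 2.59 (SD, n = 2). In the knockdown table, promoter members had 33.5% and intron members 41.7%, against wild-type means of 50.7% ± 1.62 and 51.9% ± 1.92. Shore members had 35.4% in the knockdown and members outside islands and shores 40.7%. With 1 library each, the rescues and the knockdown give no error for these gaps.

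For 346 members of both tables with at least 10 reads in each of the wild-type rescue and the knockdown, the averages ran in one order. The 61 members under 30% with wild-type UHRF1 averaged 24.9% in the knockdown, the 201 in the range 37.3% and the 84 over 70% 50.1%. Their wild-type means ran in the same order, at 46.4%, 51.9% and 54.9%, and the 3KR rescue likewise had 6.57%, 12.8% and 22.5%. Over the 482 members of both tables, Pearson's r between the knockdown and the wild-type rescue was 0.30, and r of each with the wild-type mean was 0.310 and 0.320. These values describe sites that share their sequence and their choice on the same wild-type reads, and are given without a test.

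Sites within 100 bp of a member were intermediate in 20.2% of 1157 cases, against 3.75% for the neighbours of other sites. Another 42.0% were sites whose 2 wild-type libraries fell in different classes, against 12.3% for other sites. Sites over 70% made up 21.6%, against 20.1%, and sites under 30% made up 16.2%, against 63.8%. The 585 members formed 488 clusters at this distance, of which 413 were single sites and the largest held 5. Adjacent members can lie on the same reads. They differed by a median of 11.5 points in the wild-type rescue, against 24.8 points over all pairs of members, and by 15.4 against 26.2 points in the knockdown.

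Grouped by the nearest transcript start, the rescue-table members fell into 473 loci, of which 88 had 2 or more members. Levels of a locus below are unweighted means over its members. Genes were named where a RefSeq start lay within 100 bp of that start or where the gene holds the site, and otherwise a site is said to be nearest to a gene. Coordinates are those of mm10.

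Srrm2, which encodes a scaffold protein of nuclear speckles, had 4 promoter members within 135 bp (chromosome 17, 23823021 to 23823155). They averaged 46.1% and 39.2% in wild type, 2.08% and 0% in Uhrf1-/-, 10.9% on 112 reads with wild-type UHRF1 and 4.25% with 3KR. In the knockdown they had 16.6% on 159 reads. Srrm2 was the lowest of the ranked loci in the wild-type rescue, close to the Uhrf1-/- libraries. Other loci below both wild-type libraries in the rescue were Lman2l (19.1%), which encodes a lectin of the early secretory pathway, Ung (20.1%), the uracil-DNA glycosylase of base excision repair, and Tdrp (24.3%), a gene linked to testis development. The 3 members where Dusp15 and Ttll9 overlap (chromosome 2, 152952104 to 152952160) had 44.2% and 52.8% in wild type, 32.4% on 321 reads with wild-type UHRF1, 1.31% with 3KR and 15.5% in the knockdown, and were at 0% in both Uhrf1-/- libraries. By Insl3, a peptide hormone gene of the testis, 3 members had 34.5% and 34.7% in wild type, 28.4% with wild-type UHRF1, 3.82% with 3KR and 13.7% on 212 reads in the knockdown.

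At other loci the wild-type rescue stood above both wild-type libraries. The 2 promoter members of Muc1 had 50% and 68.3% in wild type and 93.8% with wild-type UHRF1, on 32 reads. The 4 promoter members of Syde1 (chromosome 10, 78592260 to 78592448), had 56.1% and 46.1% in wild type, 7.5% and 0% in Uhrf1-/-, 85% with wild-type UHRF1 and 2.5% with 3KR. In the knockdown they had 30.4%. Of the 4 Syde1 members, 3 had 8 reads each in the wild-type rescue, all methylated, and the other had 40% of 20 reads, beside 40% and 31.3% in wild type. The 4 intron members shared by Rasgrp2, an activator of Rap GTPases in platelets, and Gm14965 (chromosome 19, 6414577 to 6414694) had 48.5% and 60.8% in wild type, 80% on 201 reads with wild-type UHRF1 and 38.6% with 3KR, and 35.4% in the knockdown. Lman1l (78.6%), Slc5a5 (77.6%), the gene of the thyroid iodide transporter, and Pigs (77.4%), a subunit gene of the GPI transamidase, were also above their wild-type libraries, which lay between 50% and 68.3%.

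**Figure D5:**
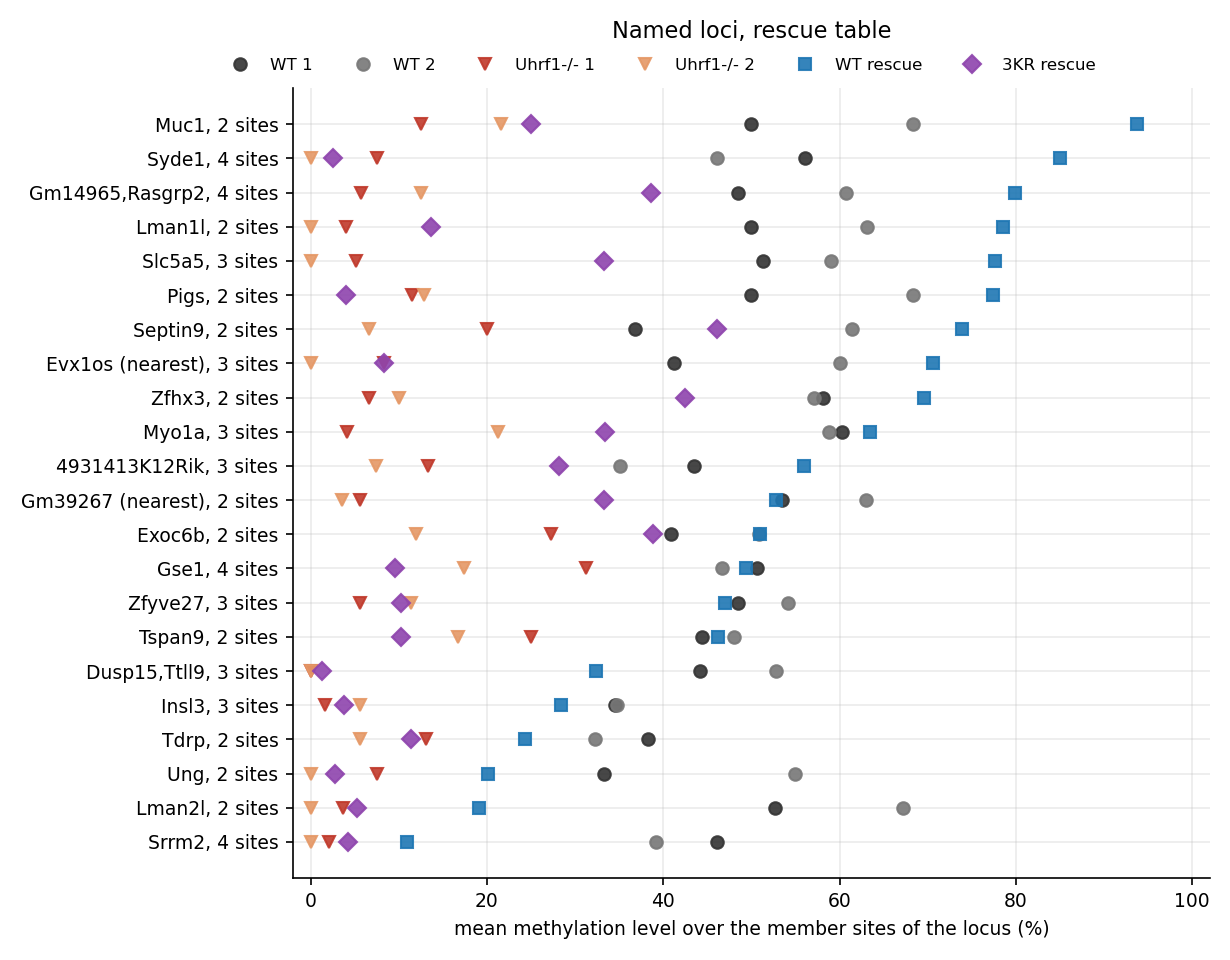
Mean methylation level over the member sites of a locus (horizontal axis, percent) in the 6 libraries of the rescue table, for the loci with the most members and those ranked highest or lowest in a library. The loci are ordered by the wild-type rescue, from Srrm2 at 10.9% to Muc1 at 93.8%. Their wild-type points, from 32.3% to 68.3%, are confined by the rule. Some loci were picked as highest or lowest in the wild-type rescue, so both ranges follow from the choice.

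Among loci with at least 2 members of 10 or more reads in every library, ranked over those members, the 3KR rescue was highest at Septin9 (46.2%), which encodes a filament-forming GTPase, Zfhx3 (42.5%), a homeobox transcription factor gene, Exoc6b (38.9%), an exocyst subunit gene, and at 2 members nearest to Gm39267 (33.3%). All 4 means were above their Uhrf1-/- libraries, and all 4 were below the wild-type rescue, which had 73.9%, 69.6%, 51.0% and 52.8%. Each is a mean of 2 sites, on 26 to 48 reads with 3KR. The Septin9 sites had 30.8% and 61.5% with 3KR, beside 0% and 40% in Uhrf1-/- library 1. Those of Exoc6b had 11.1% and 66.7%, beside 15.7% to 38.8% in Uhrf1-/- library 1 and 11.1% to 12.9% in library 2. By the same ranking Uhrf1-/- was highest at 4 loci. Gse1 had 31.3% and 17.4% over all 4 of its members, and Tspan9, a tetraspanin gene, had 25% and 16.7%. Exoc6b had 27.2% and 12%, and Myo1a, a brush-border myosin gene, had 4.17% and 21.2%. The 2 libraries did not lie close together at these loci. Of the remaining named loci, Zfyve27, which encodes protrudin, had 47% with wild-type UHRF1 and 10.3% with 3KR, beside 48.4% and 54.2% in wild type. The promoter members of 4931413K12Rik had 55.9% and 28.2%, beside 43.4% and 35.1%, and the 3 members nearest to Evx1os had 70.6% and 8.33%, beside 41.2% and 60%.

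In the knockdown the 2 members nearest to Gm17619 were at 0% of 20 reads, from 43.3% and 56.1% in wild type, and the 4 members nearest to Ppp1r2-ps5 were at 5.00% of 40 reads, from 44.1% and 47.2%. Tbc1d16, a Rab GTPase-activating protein gene, had 7.69% from 53.6% and 50%, and Lman2l had 10% from 52.7% and 67.2%. In the other direction, 2 members nearest to 1700057H15Rik had 77.5%, from 50% and 58.7%, and the 2 of Becn1, an autophagy gene, had 65.0%, from 50% and 56.3%. The homeobox gene Prrx2 had 58.3%, above 41.6% and 52.9%. The 4 members by Ehmt1, which encodes an H3K9 methyltransferase, averaged 49.4% beside 50.3% and 50.8%. Singly they ran from 25% to 76.5% in the knockdown, so only their mean stayed. The 5 members by Chst12, a chondroitin sulfotransferase gene, averaged 44.4% beside 45.0% and 45.9%. They had 33 knockdown reads in all and ran from 33.3% to 66.7%. The 4 nearest to Itga2b, the platelet integrin gene, had 37.8% beside 48.6% and 63.3%. At the 4 members nearest to Evx1os the knockdown had 52.1%, between the wild-type libraries at 47.2% and 60%.

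Few listed genes had covered sites, so the lists give single cases. Of 55 imprinted genes, 8 had covered sites in the rescue table and 3 members lay at 4 of them. The member at Nnat, a paternally expressed gene inside Blcap, lay in the promoter (chromosome 2, 157562211). It had 40.5% of 37 and 60% of 30 reads in wild type, 21.1% of 19 and 0% of 5 reads in Uhrf1-/-, 52.9% of 51 with wild-type UHRF1, 10% of 20 with 3KR and 36.4% of 11 in the knockdown. The knockdown table has 2 more members there, with 20% of 10 and 60% of 5 reads in the knockdown, from 36.1% and 44.0% and from 33.3% and 46.7% in wild type. Peg10 (69.2% and 66.7% in wild type, 79.5% with wild-type UHRF1) and Kcnq1 (54.5% and 40.9%, 51.9%) had 1 member each. Meioc, needed for meiotic prophase, held the 3 members of the germline list, in its promoter. They had 54.5% to 63.6% and 41.7% to 48.6% in wild type, 0% to 15.4% in Uhrf1-/-, 51.8% to 75% with wild-type UHRF1, 0% to 25% with 3KR and 22.2% to 55.6% in the knockdown. The lineage list gave 1 promoter member, at the heart and forelimb gene Tbx5, with 48.0% and 35% in wild type, 27.3% and 0% in Uhrf1-/-, 50.4% of 137 reads with wild-type UHRF1, 9.23% of 65 with 3KR and 32.0% of 50 in the knockdown. Kat8, the gene of MOF itself, had 1 exon member in the rescue table, with 66.7% and 63.6% in wild type, 0% and 20% in Uhrf1-/-, 100% of 20 reads with wild-type UHRF1 and 25% of 8 with 3KR. The knockdown table had no covered site at Kat8. No member lay at a listed stem cell or fibroblast gene.

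The 5 rescue-table members on the X chromosome stood apart in the wild-type rescue. They had 44.8% and 53.6% in wild type, 12.5% and 13.6% in Uhrf1-/- and 36.2% with 3KR, and averaged 92.2% with wild-type UHRF1, against means of 41.6% to 71.5% on the autosomes. The 3 of them upstream of Tent5d, which encodes a terminal nucleotidyltransferase, were at 100% of 12 to 14 reads each and may share reads. On the autosomes, the mean over members was above Uhrf1-/- in the wild-type rescue on 19 of 19 chromosomes, and lower in the knockdown than in wild type on 19 of 19, with differences from -22.3 to -3.73 points. The wild-type rescue was above wild type on 10 and below on 9. The sex chromosomes were not lower in the knockdown. The 6 knockdown-table members on the X had 47.9% and 54.5% in wild type and 55.2% in the knockdown. The 1 on the Y had 58.3% and 55.9% in wild type and 60% in the knockdown. Chromosomes read in the same libraries are not replicates.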

How the data were processed

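Per the labels' protocols, DNA of J1 cells was sequenced by a double-enzyme reduced representation bisulfite protocol. The submitters' processing notes name cutadapt, Trim Galore, BSMAP 2.73 and mm10; the sources used here do not give their order and settings. Reads then became tables: the authors deposited 2 tables with a count of total, methylated and unmethylated reads per cytosine and library, per the file headers. No site was listed with fewer than 5 reads in a library, and 0 columns lacked a sample. The wild-type rescue's column was matched by name, and its final digit has no stated meaning. Members, lists and rules were chosen with earlier results of these data known.

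Levels were computed from these counts. edgeR 4.0.16 (limma 3.58.1, R 4.3.3) tested methylated and unmethylated counts with a term per library and per group, over sites with at least 10 reads in the libraries compared, dropping sites whose reads were all methylated or all unmethylated. All libraries of a table shared one spread, so lone libraries were assumed to vary like wild type and Uhrf1-/-. At the members the rule limits the wild-type part of that spread. P-values were adjusted over all sites tested. They reflect only how far these libraries differ, which may be technical. With 2 against 2 libraries, 2 of 6 arrangements give the smallest two-sided p, so library means were not tested. The test was run on simulated counts for Uhrf1-/- against wild type only. Comparisons with a lone library were not simulated, nor was the excess of even counts. Wilson intervals of 95% and floors of 3 counts cover counting error only.

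Loci named are the 10 with the most members (at least 3), the 4 highest or lowest per library among loci with at least 2 members of at least 10 reads throughout, and members at listed genes (within 2000 bp). No genome was used, so sequence was read only in RefSeq promoter windows. Python 3.11.15, numpy 2.4.6, pandas 2.3.3, scipy 1.17.1 and matplotlib 3.10.9 did the rest.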

Additional observations from a re-analysis of the deposited data

How the results depend on the processing

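Of the alternatives for the main results, 126 gave the same reading, 49 moved the value by more than the spread, 2 reversed it, 4 added calls and 12 removed them. Those with the same reading include comparisons in which edgeR called no member under either setting. For lone libraries and shares of members, the spread is counting error only. With at least 20 reads in every library, only 7 rescue-table sites were left: the mean was 6.57% for Uhrf1-/-, 42.1% with wild-type UHRF1 and 11.3% with 3KR, and the differences were -45.9 (Uhrf1-/- minus wild type), 35.5 (wild-type rescue minus Uhrf1-/-), -30.8 (3KR minus wild-type rescue), 4.72 (3KR minus Uhrf1-/-) and -10.3 points (wild-type rescue minus wild type, reversed). With at least 10 reads in every library (281 sites) the means were 7.09%, 51.7% and 13.2%, the wild-type rescue was 44.6 points above Uhrf1-/-, and its difference from wild type reversed to -0.0441 points. Pooled reads gave 52.6% and 14.3% in the rescues and a difference of 44.3 points between the wild-type rescue and Uhrf1-/-. A window of 40% to 60% gave 52.7% in the wild-type rescue, 44.1 points over Uhrf1-/-, a share of 78.4% at 20 points, and -37.1 points for 3KR minus wild-type rescue. A window of 20% to 80% gave 55.5% in wild type, 9.36% without Uhrf1, 55.8% and 16.1% in the rescues, and differences of -46.2 (Uhrf1-/- minus wild type) and 46.5 points (wild-type rescue minus Uhrf1-/-). In the knockdown table that window gave 55.4% in wild type and 42.7% in the knockdown, at least 20 reads (89 sites) gave 30.6% and -19.5 points, pooled reads 38.4%, and 1 value per cluster 40.9%.

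At 10 and at 30 points in place of 20, the share of members past the difference was 98.2% and 88.3% (Uhrf1-/- below wild type), 91.4% and 74.0% (wild-type rescue above Uhrf1-/-), 88.1% and 64.6% (3KR below wild-type rescue), 33.0% and 8.75% (3KR above Uhrf1-/-), 34.9% and 11.6% (wild-type rescue above wild type), and 59.3% and 25.1% (knockdown below wild type). With at least 20 reads the shares at 20 points were 100%, 79.4%, 13.8%, 16.4% and 53.9%, in that order without the 3KR and wild-type rescue pair. Without Uhrf1-/- replicate 2 the share of members 20 points below wild type was 91.2%, and over all 4 libraries left out in turn it ran from 91.2% to 95.9%. The share 20 points above wild type in the wild-type rescue was 26.6% without wild-type replicate 2 and 18.8% without replicate 1. The cause of these shifts was not tested.

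The edgeR counts of called members depended most on the settings. For Uhrf1-/- below wild type, 120 became 210 by limma, 9 with at least 20 reads (17 members tested) and 0 to 2 with 1 library left out. For the wild-type rescue above Uhrf1-/-, 10 became 151 by limma, 0 with at least 5 reads and 0 with any 1 library left out. limma called 94 members lower in 3KR than with wild-type UHRF1 and 6 higher with wild-type UHRF1 than in wild type, where edgeR called 0. The replicate block gave 10 calls for the first comparison and 0 for the second. Samples that share a number did not deviate together (correlation 0.015 over 4603 sites and -0.032 over 334 members). With so few reads per site this cannot decide whether the numbers pair them. No paired analysis was possible because the knockdown table has 1 knockdown library, and edgeR was not run there with a wild-type library left out, which would leave no residual spread. Lone libraries and 10 to 20 reads per site limit what single members can show.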
